A study of Mus musculus with 6 samples.

Results

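Beyond Fgf8 on mouse chromosome 19, on the side that faces away from Lbx1, a row of genes runs through Npm3, Oga, Kcnip2, Hps6, Ldb1 and Nolc1 to Gbf1. These 7 are among the 14 genes (11 protein-coding) annotated between Fgf8 and the end of Gbf1, and all 7 were among the 15668 genes counted in both matrices of the series. The protein-coding genes Armh3, Pprc1 and Pitx3 of the same interval were also counted in both and are given after the 7. Npm3 encodes a nuclear chaperone of the nucleophosmin family, and Oga (also written Mgea5) the enzyme that removes O-GlcNAc from proteins. Kcnip2 encodes an accessory subunit of Kv4 potassium channels, and Hps6 a subunit of the BLOC-2 complex of lysosome-related organelles. Ldb1 encodes the cofactor that bridges LIM-domain transcription factors, Nolc1 a nucleolar phosphoprotein that accompanies snoRNPs, and Gbf1 the exchange factor that activates ARF1 at the Golgi.

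Limb buds of E11.5 mouse embryos were profiled by single-cell RNA-seq in 6 libraries, 1 per group, each from a single reaction. Homozygous Inv1 hindlimbs and forelimbs, which carry an inversion that disrupts Fbxw4 and moves the AER enhancers of Fgf8 away from it, were compared with wild-type hindlimbs and forelimbs from G4 cells, the 129sv/C57Bl6 hybrid embryonic stem cells in which the inversion was made. Homozygous Dup hindlimbs, with a tandem duplication from Lbx1 to Fbxw4 that leaves Fgf8 out, were compared with C57BL/6 wild-type hindlimbs. The authors place Dup on a C57Bl6 background and Inv1 on the G4 background. All of the genes described here lie outside the duplicated segment, and mutant mice were derived from edited embryonic stem cells by diploid or tetraploid aggregation. The number of embryos per reaction was not found in the sources used here.

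The apical ectodermal ridge (AER) is the epithelial rim of the limb bud that secretes FGFs and keeps the underlying mesenchyme growing. The AER enhancers of Fgf8 that the inversion moves lie inside Fbxw4, and developmental enhancers can act on more than one promoter of the same chromatin domain. Neighbours within the domain of a strongly regulated gene may therefore share its pattern. They may also be housekeeping genes with a level of their own in every cell type. The authors place Oga outside the Fgf8 and Lbx1 domains. In their bulk RNA-seq of Dup and Inv1 limb buds, with biological replicates, they report no change of Slf2, Twnk or Oga. Those values are for whole limb buds and not for AER cells.

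After cells with 2000 or fewer detected genes were left out, 24891 of 26486 cells remained, with 22660212 to 59403104 UMIs per library and a median of 6729 to 10098 UMIs per cell. The authors' AER class held 205 of these cells, 82 in the Inv1 hindlimb, 33 in the G4 hindlimb, 39 in the Inv1 forelimb, 10 in the G4 forelimb, 25 in Dup and 16 in the C57BL/6 wild type. Levels are UMIs of a gene scaled to 1000000 UMIs of the class (CPM). Ranges after a level, share or ratio are exact 95% intervals that cover counting error only. With 1 library per group there is no replicate and no test between groups, and a ratio whose interval leaves out 1 compares those libraries and not the genotypes. Any pair of libraries shared 3 to 14 cell barcodes. Of 8 AER markers other than Fgf8 (En1, Sp6, Sp8, Rspo2, Fgf9, Fgf4, Dlx2 and Msx2), all had UMIs in AER cells of every library except Fgf4, which had 0 in both G4 libraries. These AER markers summed to 982 to 2084 CPM in AER cells and to 248 to 487 CPM in dorso-ventral ectoderm. The 6 dorso-ventral ectoderm markers did not separate the classes, at 1611 to 3330 CPM in AER cells and 1376 to 2855 CPM in dorso-ventral ectoderm. The 4 endothelial markers had 0 UMIs in AER cells of all 6 libraries. Of the other lists, 16 mesenchyme markers summed to 472 to 1597 CPM there, 6 muscle markers to 0 to 81.4 CPM, 4 immune markers to 0 to 12.8 CPM and 3 neural crest and neuron markers to 51.2 to 124 CPM. The 3 red blood cell markers summed to 689 to 2874 CPM in AER cells, with the highest sums in Dup (2252 CPM) and C57BL/6 (2874 CPM), and to 564 to 2675 CPM in mesenchyme.

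In the NCBIM37 assembly (mm9), to which the files were aligned, Fgf8 spans chr19:45811288-45817405 on the minus strand. Npm3 is its nearest neighbour, at chr19:45822224-45824081 on the same strand. The interval between the end of Npm3 and the start of Fgf8 measures 4819 bp. The start of Npm3 lies 670 bp from the end of Oga (chr19:45824751-45858236, minus strand). Kcnip2 follows at chr19:45866329-45890551 on the minus strand, and Hps6 at chr19:46077968-46080663 on the plus strand, inside the annotated lincRNA 4930505N22Rik. Ldb1 lies at chr19:46107083-46119704 on the minus strand and overlaps the start of Pprc1 by 329 bp. Nolc1 (chr19:46150353-46160018) and Gbf1 (chr19:46227048-46360999) are on the plus strand. The non-coding gene Gm15491 runs antisense across the first 84 bp of Npm3 and the last 2050 bp of Oga. Gene starts lie 6.68 kb (Npm3), 40.8 kb (Oga), 73.1 kb (Kcnip2), 261 kb (Hps6), 302 kb (Ldb1), 333 kb (Nolc1) and 410 kb (Gbf1) from the start of Fgf8.

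The promoter windows of Npm3 and of its neighbour Oga are shown because these adjacent genes are set against each other in the results. Both windows come from RefSeq (GRCm38.p6), run from 250 bases before to 50 bases after the annotated start, and are written 5′ to 3′ along the gene, which is the minus strand for both. The Npm3 window is chr19:45749516-45749815 and the Oga window is chr19:45783504-45783803. Capitals mark GGGCGG, the GC box bound by Sp-family factors, on either strand.
Npm3: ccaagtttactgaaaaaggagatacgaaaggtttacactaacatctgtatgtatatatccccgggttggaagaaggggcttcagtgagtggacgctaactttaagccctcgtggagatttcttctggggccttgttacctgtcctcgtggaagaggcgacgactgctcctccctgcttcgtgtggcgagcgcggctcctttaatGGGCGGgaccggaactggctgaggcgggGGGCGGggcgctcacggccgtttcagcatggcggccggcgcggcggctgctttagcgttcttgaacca
Oga: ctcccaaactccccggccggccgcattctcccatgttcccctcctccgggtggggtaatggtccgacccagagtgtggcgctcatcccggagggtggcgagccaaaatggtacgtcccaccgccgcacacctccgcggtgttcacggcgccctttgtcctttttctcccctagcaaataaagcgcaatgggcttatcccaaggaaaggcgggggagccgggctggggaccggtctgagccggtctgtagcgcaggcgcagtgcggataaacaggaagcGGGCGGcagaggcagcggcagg
The Npm3 window held 2 GC boxes and the Oga window 1, and 35.7% of all 32851 RefSeq promoter windows of this length held at least 1. Neither window held CCAAT (37.4% of all windows), the TATA box TATAAA (13.6%), the homeodomain core TAATTA (5.29%) or the TCF/LEF motif CTTTGAT (3.73%), each searched on both strands. The Npm3 window had 24 CG dinucleotides and the Oga window 26, against a median of 7 over all windows. The motifs are a description of these letters only.

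Fgf8 served as the check of the Inv1 labels and as the pattern with which the neighbours were compared. AER cells had 25 Fgf8 UMIs in the Inv1 hindlimb (37.6 CPM, 24.4 to 55.5) against 1969 in the G4 hindlimb (7315 CPM), a ratio of 0.00514 (0.00332 to 0.00762). There were 4 UMIs in the Inv1 forelimb (10.3 CPM) against 187 in the G4 forelimb (2574 CPM), a ratio of 0.00401 (0.00108 to 0.0104). In Dup there were 527 UMIs (3371 CPM) against 1072 in the C57BL/6 wild type (5453 CPM), a ratio of 0.618 (0.556 to 0.687). An Fgf8 UMI was found in 14.6% of AER cells of the Inv1 hindlimb and 10.3% of those of the Inv1 forelimb, against 100% in Dup and in the 3 wild types. The low Inv1 values go with the Inv1 labels. Fgf8 lies outside the duplicated segment and checks nothing for the Dup label, and since the authors named the AER class with Fgf8 and En1, the wild-type and Dup shares are not independent of it.

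Among the 7 genes, Npm3 was the one whose AER ratio had an interval below 1 in both Inv1 limbs. In AER cells it stood at 82.8 CPM (55 UMIs, 62.4 to 108) in the Inv1 hindlimb, against 338 CPM (91 UMIs, 272 to 415) in the G4 hindlimb. It stood at 93.0 CPM (36 UMIs, 65.1 to 129) in the Inv1 forelimb, against 289 CPM (21 UMIs, 179 to 442) in the G4 forelimb. Both Inv1 levels lay below all 3 wild-type levels, and the interval of neither overlapped that of its own wild type. The ratio was 0.245 (0.172 to 0.346) in hindlimb and 0.322 (0.183 to 0.580) in forelimb. In Dup, Npm3 was at 256 CPM (40 UMIs, 183 to 348), against 290.0 CPM (57 UMIs, 220 to 376) in the C57BL/6 wild type, a ratio of 0.882 (0.574 to 1.35) that holds 1. Ordered by level, the AER ran from the Inv1 hindlimb and the Inv1 forelimb, whose intervals overlap, to Dup, the G4 forelimb, the C57BL/6 wild type and the G4 hindlimb, whose intervals also overlap one another. Between the wild types of the 2 backgrounds, G4 over C57BL/6 hindlimb, the ratio was 1.17 (0.828 to 1.65).

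**Figure D1:**
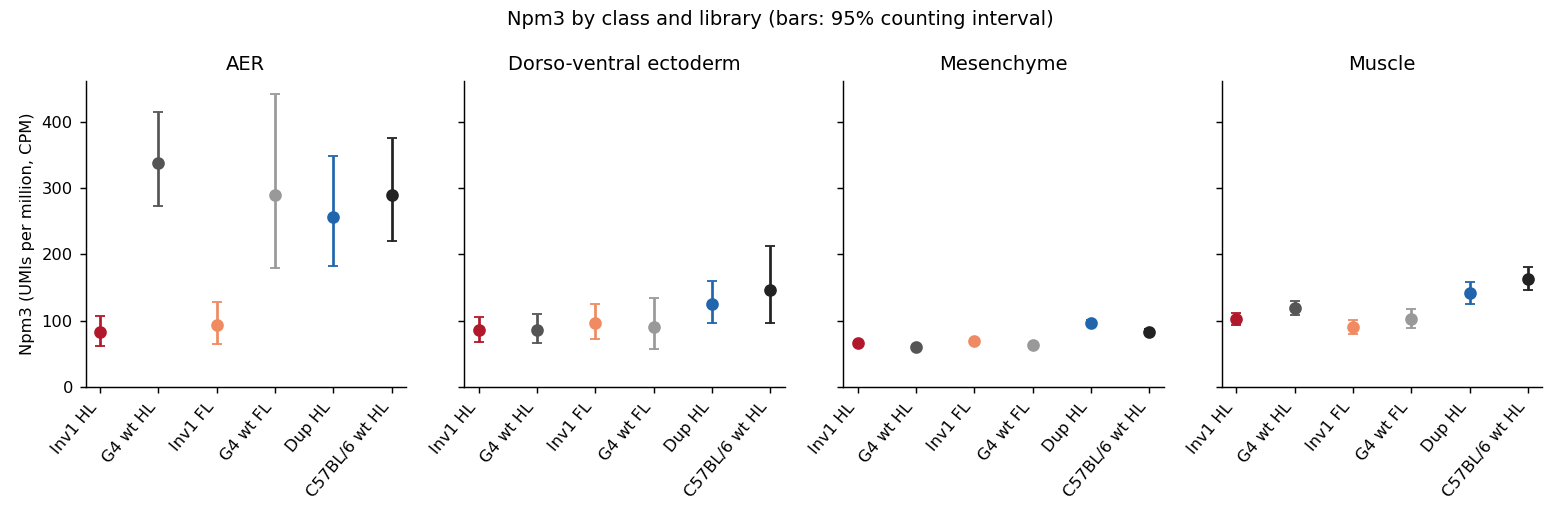
Npm3 level (CPM, from 0) in AER, dorso-ventral ectoderm, mesenchyme and muscle cells, 1 point per library with its 95% Poisson interval, with HL for hindlimb, FL for forelimb and wt for wild type. In the AER panel the Inv1 points lie at 82.8 and 93.0 CPM and the other 4 between 256 and 338 CPM, while in the other panels each mutant point lies near its wild type.

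Outside the AER the Npm3 ratios ran from 0.859 to 1.16, before the median-of-ratios scaling described below. In dorso-ventral ectoderm, the surface epithelium from which the AER is set apart, Npm3 was at 85.6 CPM in the Inv1 hindlimb against 86.4 CPM in G4, and at 96.6 CPM in the Inv1 forelimb against 90.2 CPM in G4. It was at 125 CPM in Dup against 146 CPM in C57BL/6. The ratios of 0.991 (0.712 to 1.38), 1.07 (0.652 to 1.81) and 0.859 (0.540 to 1.40) have intervals that hold 1. In mesenchyme Npm3 was slightly higher in each mutant, at 66.8 CPM in the Inv1 hindlimb against 60.9 CPM in G4, 70.2 CPM in the Inv1 forelimb against 63.0 CPM in G4, and 97.1 CPM in Dup against 83.8 CPM in C57BL/6. The mesenchyme ratios were 1.10 (1.04 to 1.15), 1.11 (1.04 to 1.19) and 1.16 (1.09 to 1.23), smaller steps than the 0.727 (0.684 to 0.772) of G4 over C57BL/6, the wild-type hindlimbs. In muscle cells Npm3 was at 102 CPM in the Inv1 hindlimb against 119 CPM in G4, a ratio of 0.860 (0.753 to 0.981). The muscle ratios of 0.877 (0.729 to 1.06) in the Inv1 forelimb and 0.868 (0.740 to 1.02) in Dup have intervals that hold 1. Endothelial cells numbered 30 or more in both libraries in the hindlimb pair alone, and had 55.0 CPM in Inv1 against 55.3 CPM in G4 (ratio 0.995, 0.626 to 1.56).

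The AER was also compared with the other classes of its own library. The AER had 1.24 times the Npm3 level of mesenchyme (0.932 to 1.62) in the Inv1 hindlimb against 5.55 times (4.46 to 6.84) in the G4 hindlimb, and 1.32 times (0.925 to 1.84) in the Inv1 forelimb against 4.59 times (2.83 to 7.04) in the G4 forelimb. In Dup the AER had 2.63 times the mesenchyme level (1.88 to 3.60), against 3.46 times (2.61 to 4.51) in the C57BL/6 wild type. The intervals of the 3 wild types and Dup lie above 1, and those of both Inv1 libraries hold 1. Set against dorso-ventral ectoderm, the AER ratio was 0.967 (0.677 to 1.37) in the Inv1 hindlimb and 0.962 (0.614 to 1.49) in the Inv1 forelimb, against 3.91 (2.82 to 5.45) in the G4 hindlimb and 3.20 (1.70 to 6.01) in the G4 forelimb. It was 2.04 (1.34 to 3.08) in Dup, against 1.99 (1.24 to 3.27) in C57BL/6. The quotient of the AER to mesenchyme ratios, mutant over wild type, was 0.223 (0.159 to 0.313, delta method) in hindlimb, 0.289 (0.168 to 0.496) in forelimb and 0.761 (0.506 to 1.15) in Dup.

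Per cell, an Npm3 UMI was found in 43.9% of AER cells of the Inv1 hindlimb (36 of 82, 33.0 to 55.3) against 84.8% in G4 (28 of 33, 68.1 to 94.9), and in 46.2% in the Inv1 forelimb (18 of 39, 30.1 to 62.8) against 90.0% in G4 (9 of 10, 55.5 to 99.7). Shares were 72.0% in Dup (18 of 25, 50.6 to 87.9) and 100% in C57BL/6 (16 of 16, 79.4 to 100). Mesenchyme, which expresses the gene at its own lower level, had shares of 40.6% to 49.98%, at a median of 6611 to 9807 UMIs per cell against 5691 to 9184 in AER cells. After each cell was thinned to 4000 UMIs, the AER shares were 32.9% in the Inv1 hindlimb against 72.7% in G4, 17.9% in the Inv1 forelimb against 40.0% in G4, and 68.0% in Dup against 68.8% in C57BL/6. Thinned mesenchyme shares were 21.0% to 30.8%. After thinning the intervals of the hindlimb pair do not overlap and those of the forelimb pair do. The median AER cell held 0 Npm3 UMIs in both Inv1 libraries, against 2 in both G4 libraries, and 1 in Dup against 4 in C57BL/6, and the highest cell of the G4 hindlimb held 15.

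The fall of Npm3 was also set against all genes whose average over both libraries of the pair reached 50 CPM. In AER cells of the Inv1 hindlimb, 1.25% of 2878 such genes were lower than in G4 by 2-fold or more and 1.88% were higher by as much. Of the 3 members that reached this level (Npm3, Oga and Nolc1), Npm3 was lower by 2-fold and none was higher. Ranked by log2 ratio with 50 CPM added, Npm3 was the 4th lowest (-1.55) and Fgf8 the lowest. In the Inv1 forelimb, where G4 had 10 AER cells, 14.4% of 3303 genes were lower by 2-fold or more and 5.27% higher. There 3 of 4 members (Npm3, Oga and Nolc1) were lower, with Npm3 at rank 25. The G4 forelimb values of Oga and Nolc1 rest on 11 and 8 UMIs. In both limbs together, 0.385% of 2598 genes (10 genes) were lower by 2-fold or more, and Fgf8 and Npm3 were among the 10. In Dup, 5.38% of 3103 genes were lower and 6.74% higher by 2-fold or more, and 0 of 3 members passed in either direction.

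**Figure D2:**
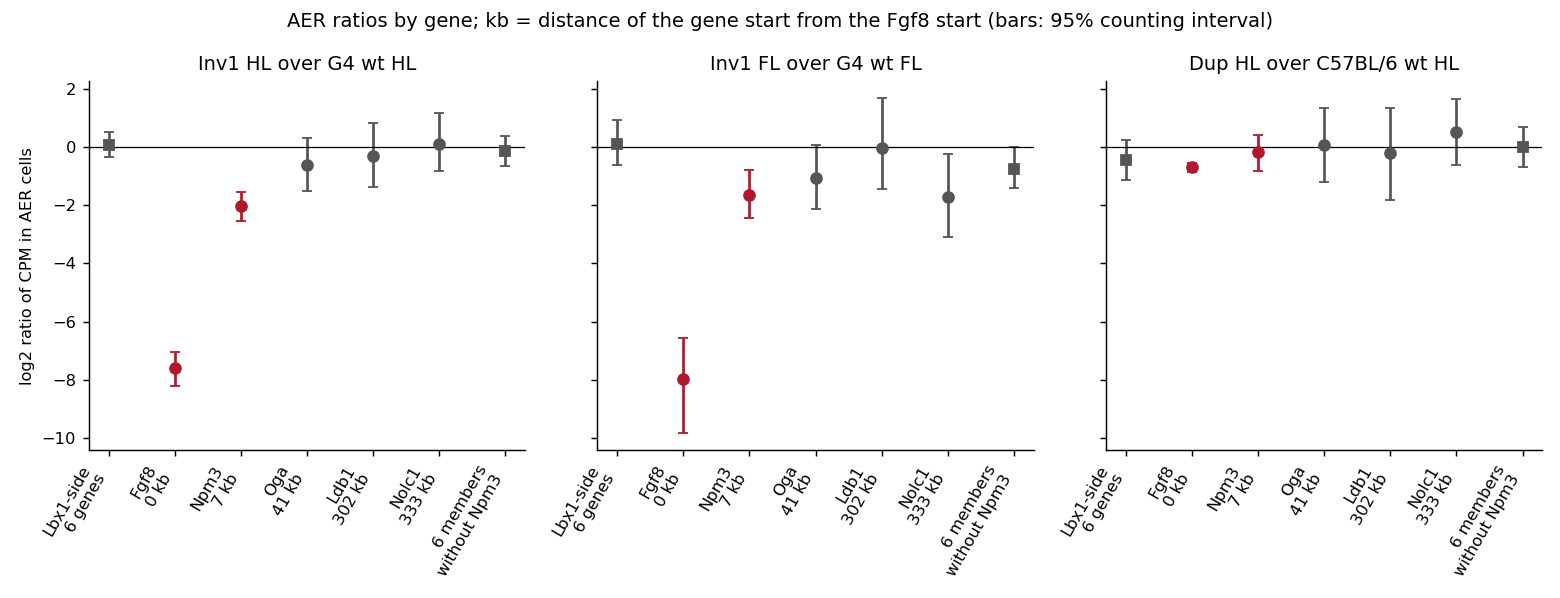
Log2 ratio of CPM in AER cells, mutant over wild type, for Fgf8, Npm3, Oga, Ldb1 and Nolc1 in their order along the chromosome, with the summed 6 genes on the Lbx1 side and the summed 6 members without Npm3 (squares) and 95% counting intervals. In the Inv1 hindlimb panel Npm3 (0.245) lies between Fgf8 and the rest, in the Inv1 forelimb panel Nolc1 (0.305) lies beside Npm3 (0.322), and the Lbx1-side sum lies at 1.06 and 1.08.

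The choice of AER cells moved the size of the Npm3 ratio. A gate that does not use Fgf8, asking for UMIs of at least 2 of Sp6, Sp8, Rspo2, Fgf9, Dlx2 and Msx2 in epithelial cells, took in every AER cell and added surface ectoderm cells, for 140 cells in the Inv1 hindlimb against 76 in G4, and 69 in the Inv1 forelimb against 31 in G4. Npm3 then stood at 86.4 CPM in the Inv1 hindlimb against 168 CPM in G4, a ratio of 0.513 (0.401 to 0.657), and at 109 CPM in the Inv1 forelimb against 138 CPM in G4, a ratio of 0.790 (0.557 to 1.13). With at least 4 of the 6 markers, a setting added after the data were seen, the ratio was 0.333 (0.235 to 0.468) in hindlimb and 0.551 (0.310 to 1.03) in forelimb. The hindlimb interval left out 1 under every choice, and the forelimb interval held 1 under each of the gates. With the authors' second annotation of hindlimb cells the ratio was 0.252 (0.179 to 0.351).

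**Figure D3:**
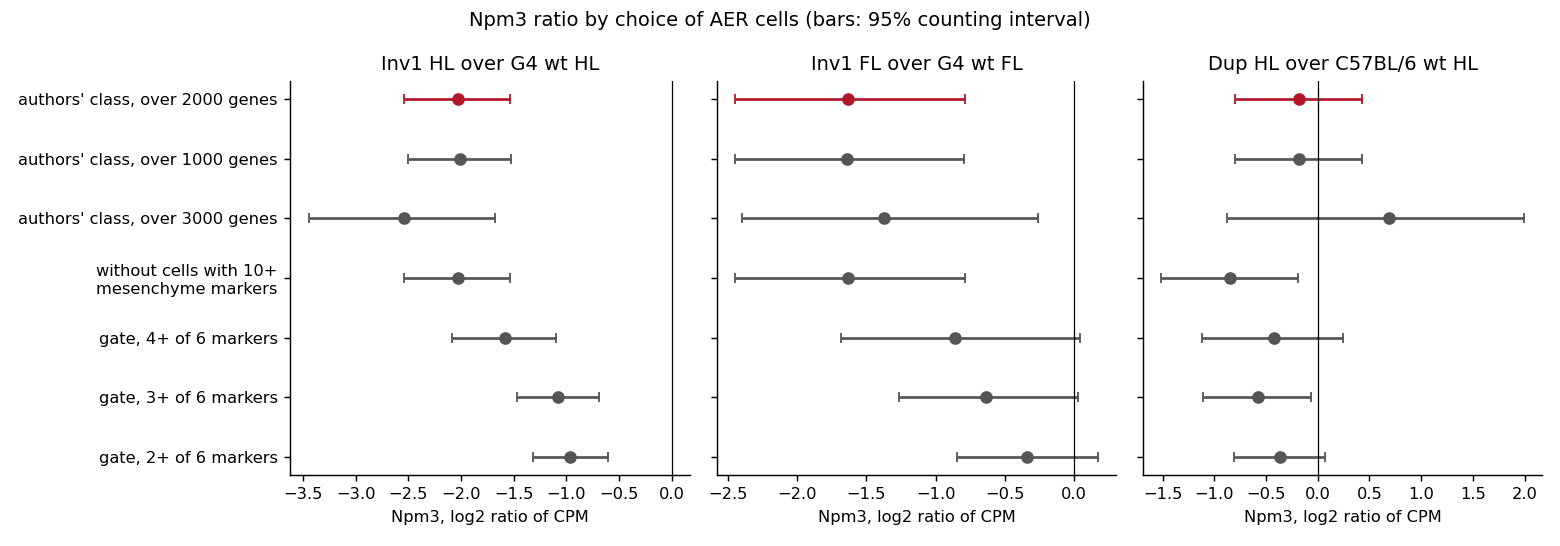
Npm3 log2 ratio in AER cells, mutant over wild type, for 7 ways of choosing the cells, with the authors' class over 2000 detected genes in red, 95% counting intervals, HL for hindlimb, FL for forelimb and wt for wild type. Inv1 hindlimb ratios run from 0.172 to 0.513 and all intervals lie below 0 on the log2 scale, while forelimb intervals under the gates and 5 of 7 Dup intervals cross it.

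Other ridge genes of the AER class did not all move alike. In the Inv1 hindlimb Dlx2 was at a ratio of 0.315 (0.227 to 0.435), Msx2 at 0.416 (0.330 to 0.523), En1 at 0.438 (0.305 to 0.631) and Sp6 at 0.603 (0.407 to 0.901), against 0.839 (0.644 to 1.10) for Sp8, 1.19 (0.948 to 1.50) for Rspo2 and 4.29 (2.67 to 7.27) for Fgf9. In the Inv1 forelimb Dlx2 (1.58, 0.792 to 3.60), Msx2 (0.964, 0.644 to 1.49) and En1 (0.865, 0.515 to 1.53) had ratios whose intervals hold 1, Fgf9 was at 2.14 (1.12 to 4.58), and Npm3 was at 0.322. Fgf4, another FGF of the ridge, had 205 UMIs in AER cells of the Inv1 hindlimb against 0 in G4, and 87 in the Inv1 forelimb against 0 in G4. In Dup the ridge markers had a median ratio of 1.77, with En1 at 2.83 (1.53 to 5.46), Msx2 at 2.11 (1.36 to 3.32) and Rspo2 at 1.89 (1.21 to 2.96), and the Dlx2 interval ran from 1.01 to 3.94. Sp8 (0.810, 0.490 to 1.32) and Fgf4 (0.914, 0.319 to 2.50) lay below 1 in Dup. Sp6 was at 1.65 (0.875 to 3.18) and Fgf9 at 1.26 (0.589 to 2.69). The intervals of Sp8, Fgf4, Sp6 and Fgf9 hold 1. Fgf8 (0.618) was lower in the same Dup cells, and the Npm3 ratio of 0.882 had an interval that holds 1. The 16 mesenchyme markers summed to 661 CPM in AER cells of the Inv1 hindlimb against 472 CPM in G4, and to 868 CPM in the Inv1 forelimb against 1597 CPM in G4. The 6 dorso-ventral ectoderm markers summed to 3330 CPM in AER cells of the Inv1 hindlimb against 2857 CPM in G4. In the forelimb they summed to 2941 CPM in Inv1 against 1611 CPM in G4. The part of these differences in the Npm3 ratio was not tested.

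In the Dup pair the ratio moved with a few cells. Of the AER cells, 1 of 25 in Dup and 4 of 16 in C57BL/6 had UMIs of 10 or more of 16 mesenchyme markers, against 0 cells in the other 4 libraries. Without them Npm3 was at 273 CPM in Dup against 492 CPM in C57BL/6, a ratio of 0.554 (0.350 to 0.876), beside 0.425 (0.378 to 0.477) for Fgf8 in the same cells. With over 3000 detected genes, which left 2 Dup cells and 7 C57BL/6 cells, the Npm3 ratio was 1.61 (0.545 to 3.99). Under the marker gates the Npm3 ratio in Dup was 0.775 (0.571 to 1.05) with at least 2 markers and 0.668 (0.465 to 0.955) with at least 3. With at least 4 markers it was 0.745 (0.460 to 1.18). The gates of 3 and 4 markers were added after the data were seen. Of the choices given here, only that with 2 Dup cells put the ratio above 1.

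Across 24 profiles (4 classes by 6 libraries), Fgf8 was the gene most like Npm3 among 6054 genes that averaged at least 20 CPM, with a Pearson r of 0.863 on log2(CPM + 10). Odc1 (0.793), Suclg2 (0.788), Atp2b1 (0.766) and Lrrfip1 (0.756) came next. The 4 profiles of a library share its handling and depth, and this r compares classes and libraries, not single AER cells. The authors named the AER class with Fgf8 and En1, and Fgf8 was high in the AER profiles of Dup and the wild types alone. The r with Fgf8 thus rests mainly on those profiles, whose Npm3 levels are given above, and is no separate support. Odc1, the rate-limiting enzyme of polyamine synthesis, had an AER ratio of 0.307 (0.240 to 0.392) in the Inv1 hindlimb and 0.668 (0.453 to 1.01) in the Inv1 forelimb.

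**Figure D4:**
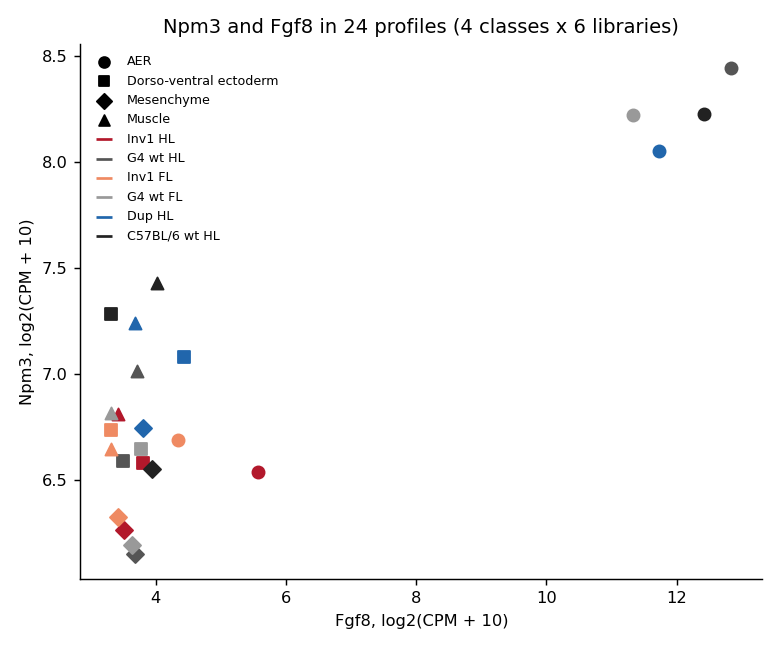
Npm3 against Fgf8, both as log2(CPM + 10), for each of 4 classes (marker shape) in each of 6 libraries (colour). The AER circles of Dup and the 3 wild types lie apart at the upper right, and the circles of the Inv1 hindlimb and forelimb lie among the other classes.

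Oga, whose end lies 670 bp from the start of Npm3, had AER ratios nearer to 1. AER cells had 29 Oga UMIs in the Inv1 hindlimb (43.7 CPM) against 18 in G4 (66.9 CPM), 28 in the Inv1 forelimb (72.3 CPM) against 11 in G4 (151 CPM), and 11 in Dup (70.4 CPM) against 13 in C57BL/6 (66.1 CPM). The ratios were 0.653 (0.350 to 1.25), 0.477 (0.230 to 1.06) and 1.06 (0.432 to 2.57), each with an interval that holds 1. Its AER level was 0.861 to 1.74 times that of mesenchyme in the 6 libraries, and every one of these intervals holds 1. Set against mesenchyme of the same library, the Inv1 over G4 quotient of Oga was 0.547 (0.303 to 0.987) in hindlimb, an interval that leaves out 1, and 0.692 (0.343 to 1.39) in forelimb. Against muscle it was 0.429 (0.226 to 0.814) in hindlimb, which also leaves out 1, and 0.828 (0.397 to 1.73) in forelimb. Against dorso-ventral ectoderm it was 0.688 (0.336 to 1.41) in hindlimb and 0.634 (0.255 to 1.58) in forelimb. In hindlimb the Npm3 ratio of 0.245 lies below the interval of the Oga ratio. In forelimb the Npm3 ratio of 0.322 lies inside the Oga interval and the Oga ratio of 0.477 inside the Npm3 interval, so the pair of genes was not separated there.

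Nolc1 and Ldb1 also had AER ratios whose intervals mostly hold 1. Nolc1 was at 52.7 CPM (35 UMIs) in AER cells of the Inv1 hindlimb against 48.3 CPM (13 UMIs) in G4, and at 102 CPM (16 UMIs) in Dup against 71.2 CPM (14 UMIs) in C57BL/6, with ratios of 1.09 (0.563 to 2.25) and 1.44 (0.657 to 3.18). In the forelimb it was at 33.6 CPM (13 UMIs) in Inv1 against 110 CPM (8 UMIs) in G4, a ratio of 0.305 (0.117 to 0.848), the single case of Oga, Ldb1 and Nolc1 in which the interval of an AER ratio left out 1. Set against the same library's mesenchyme, the forelimb quotient of Nolc1 was 0.368 (0.152 to 0.889), against dorso-ventral ectoderm 0.319 (0.114 to 0.887), and against muscle 0.418 (0.170 to 1.03). Ldb1 was at 36.1 CPM (24 UMIs) in the Inv1 hindlimb against 44.6 CPM (12 UMIs) in G4, 67.1 CPM (26 UMIs) in the Inv1 forelimb against 68.8 CPM (5 UMIs) in G4, and 44.8 CPM (7 UMIs) in Dup against 50.9 CPM (10 UMIs) in C57BL/6. Its ratios were 0.810 (0.390 to 1.78), 0.975 (0.369 to 3.25) and 0.880 (0.284 to 2.56).

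Gbf1, Hps6 and Kcnip2 were too sparse in the AER for a comparison. Gbf1 had 17 UMIs in the Inv1 hindlimb against 3 in G4 (ratio 2.30, 0.664 to 12.2), 8 in the Inv1 forelimb against 0 in G4, and 0 in Dup against 3 in C57BL/6. Hps6 had 0 UMIs in the Inv1 hindlimb against 1 in G4, 2 in the Inv1 forelimb against 0 in G4, and 0 in Dup against 2 in C57BL/6. Kcnip2 had 0 UMIs in all AER cells, which allows up to 4.52 CPM in the Inv1 hindlimb against 11.1 CPM in G4, 7.75 CPM in the Inv1 forelimb against 41.3 CPM in G4, and 19.2 CPM in Dup against 15.3 CPM in C57BL/6. Over all kept cells Kcnip2 had 7 UMIs in the Dup and C57BL/6 libraries and 0 in the Inv1 and G4 libraries, and a difference was not detectable at this depth.

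Summed, the 6 members other than Npm3 were at 158 CPM (105 UMIs) in AER cells of the Inv1 hindlimb against 175 CPM (47 UMIs) in G4, a ratio of 0.905 (0.636 to 1.31). In the forelimb they were at 199 CPM (77 UMIs) in Inv1 against 330.4 CPM (24 UMIs) in G4, a ratio of 0.602 (0.376 to 0.995), and in Dup at 217 CPM (34 UMIs) against 214 CPM (42 UMIs) in C57BL/6, a ratio of 1.02 (0.628 to 1.64). In the AER to mesenchyme quotient, mutant over wild type, the sum was at 0.815 (0.577 to 1.15), 0.766 (0.484 to 1.21) and 1.06 (0.673 to 1.67), all holding 1. The 6 genes on the Lbx1 side of the locus (Slf2, Sema4g, Mrpl43, Twnk, Lzts2 and Sfxn3) had summed AER ratios of 1.06 (0.788 to 1.43), 1.08 (0.653 to 1.90) and 0.744 (0.453 to 1.20).

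Outside the AER Oga, Ldb1, Nolc1 and Gbf1 were measured in mesenchyme and muscle of every library, and the G4 forelimb stood apart. Hps6 was sparse there too, at 1.43 to 3.63 CPM, with a UMI in 1.11% to 6.33% of cells. In mesenchyme Oga was at 50.7 CPM in the Inv1 hindlimb against 42.5 CPM in G4, at 60.2 CPM in the Inv1 forelimb against 87.2 CPM in G4, and at 58.6 CPM in Dup against 64.7 CPM in C57BL/6. The ratios were 1.19 (1.13 to 1.26), 0.690 (0.649 to 0.734) and 0.906 (0.843 to 0.975). Gbf1 was at 23.6 CPM in the Inv1 hindlimb against 21.7 CPM in G4, and at 25.8 CPM in the Inv1 forelimb against 35.6 CPM in G4. For Oga, Ldb1, Nolc1 and Gbf1, 4 of 4 mesenchyme ratios had an interval below 1 in the forelimb pair and 0 of 4 in the hindlimb pair. In muscle the forelimb intervals of the same 4 genes also lay below 1 (ratios 0.577 to 0.729). The share of all genes with such intervals is not given here. In forelimb mesenchyme 3468 genes were ranked from the lowest log2 ratio with 50 CPM added. Oga was at rank 368, Nolc1 at 1033 and Ldb1 at 1274. Between the wild types, the G4 forelimb over the G4 hindlimb, the summed 6 members were at 1.55 (1.51 to 1.60) in mesenchyme and Npm3 at 1.04 (0.973 to 1.10). The lower AER level of Oga in the Inv1 forelimb thus stands beside a lower mesenchyme level in the same pair, while the Nolc1 quotient against mesenchyme left out 1. Limb and library cannot be told apart between the G4 libraries. Median-of-ratios scaling, added after the data were seen, moved the forelimb mesenchyme pair by -0.18 on the log2 scale, and the ratios were then 0.781 for Oga, 0.820 for Gbf1, 0.938 for Nolc1 and 0.978 for Ldb1. For Npm3, whose forelimb mesenchyme ratio was already above 1, the same shift takes the ratio further from 1. The Dup mesenchyme pair moved by -0.10, which also takes the Npm3 ratio there further above 1. The same scaling moved the forelimb AER pair by -0.17.

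**Figure D5:**
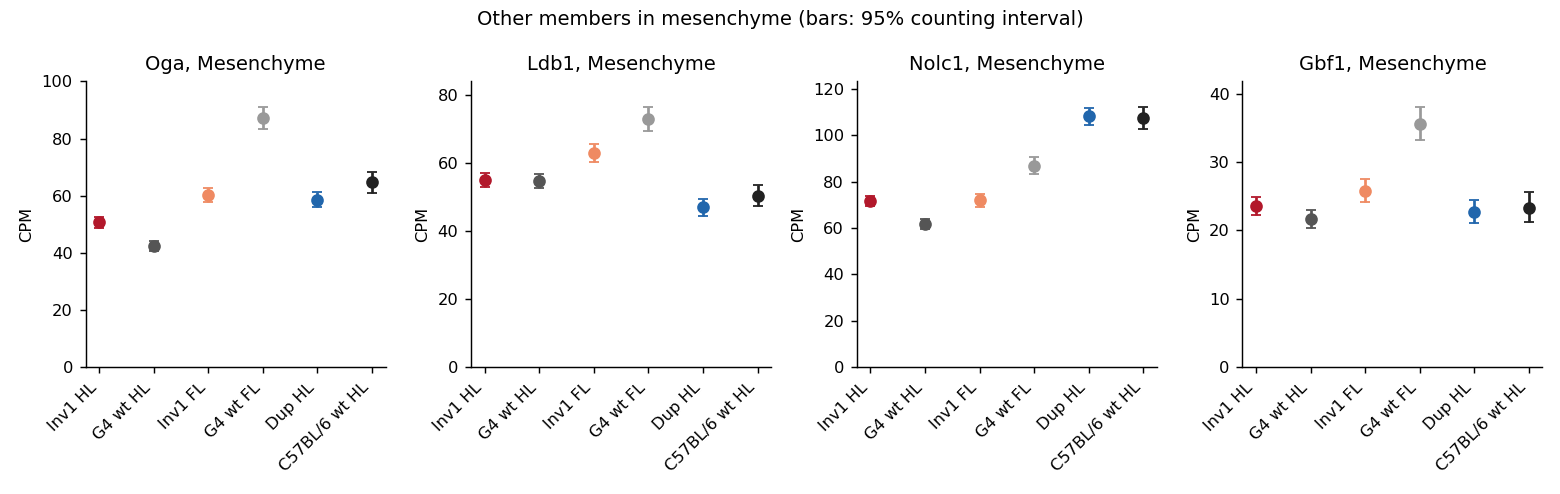
Level (CPM, from 0) of Oga, Ldb1, Nolc1 and Gbf1 in mesenchyme cells of each library, with 95% Poisson intervals, HL for hindlimb, FL for forelimb and wt for wild type. The G4 forelimb is the highest library for Oga (87.2 CPM), Ldb1 (72.9 CPM) and Gbf1 (35.6 CPM), and for Nolc1 it lies above its Inv1 forelimb (86.9 against 72.0 CPM).

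In mesenchyme, where counts are large, no member passed the 2-fold rule in any pair. Over all genes that averaged at least 50 CPM, 0.0987% passed it in either direction in the Inv1 hindlimb, 0.288% in the Inv1 forelimb and 0.35% in Dup. Within 6 finer mesenchyme classes of the Dup and C57BL/6 libraries, the Npm3 ratio ran from 1.07 in autopod mesenchyme to 1.25 (1.11 to 1.40) in zeugopod mesenchyme, and was above 1 in each class with an interval above 1 in the zeugopod alone. Nolc1 was lower in Dup in autopod mesenchyme (0.852, 0.769 to 0.944) and autopod chondrocyte progenitors (0.620, 0.476 to 0.807) and higher in stylopod chondrocyte progenitors (1.48, 1.06 to 2.05). The Nolc1 ratio of 1.01 over all mesenchyme thus joined classes with opposite directions.

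The other genes of the interval were read in the same way. Pitx3, a homeobox gene of the lens and of muscle precursors, had at most 4 UMIs in AER, dorso-ventral ectoderm or mesenchyme of any library. In muscle it was at 25.0 CPM in the Inv1 hindlimb against 22.1 CPM in G4, 31.0 CPM in the Inv1 forelimb against 36.2 CPM in G4, and 26.6 CPM in Dup against 15.7 CPM in C57BL/6. The Dup ratio was 1.70 (1.08 to 2.69), and the Inv1 ratios of 1.13 and 0.856 have intervals that hold 1. Pprc1, a PGC1-related coactivator, had 3 AER UMIs in the Inv1 hindlimb against 5 in G4, 3 in the Inv1 forelimb against 0 in G4, and 1 in Dup against 4 in C57BL/6. Gm15491, antisense to the start of Npm3, had 0 AER UMIs in the Inv1 hindlimb against 3 in G4, 0 in both forelimb libraries, and 1 in Dup against 0 in C57BL/6. Use of strand was not stated for the counting. Armh3 had 2 AER UMIs in the Inv1 hindlimb against 0 in G4, 0 in the Inv1 forelimb against 2 in G4, and 0 in Dup and in C57BL/6. Of the remaining genes, 4930505N22Rik, Elovl3 and Gm16726 were not analysed here.

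Partners in function were read for the same AER cells. Of 29 nucleolar and ribosome biogenesis genes, which work in the compartment of Npm3 and Nolc1, 13 were measured in the Inv1 hindlimb pair. Of these, 0 passed 2-fold in either direction, beside 1.25% of all genes lower and 1.88% higher. The median log2 ratio was -0.17, against -0.05 for all genes. In the forelimb pair 3 of 13 (Nhp2, Nop10 and Ddx21) were higher and 0 lower, beside 5.27% of all genes higher and 14.4% lower (median -0.23 against -0.23). In Dup 2 of 17 (Tcof1 at 2.04 and Wdr12 at 2.51, both with intervals that hold 1) were higher and 0 lower, beside 6.74% and 5.38% of all genes (median -0.36 against -0.00). Npm1, the founding nucleophosmin, was at 2631 CPM in the Inv1 hindlimb against 3050.1 CPM in G4 (ratio 0.863, 0.794 to 0.938), and at 0.906 (0.776 to 1.06) in the forelimb. No nucleolar gene was 2-fold higher in the AER than in mesenchyme in any library, and the share of all genes is not given here. In C57BL/6, 9 of 16 list genes were higher in the AER to any degree. The median log2 AER to mesenchyme value there was 0.04, against -0.07 for all genes. In the Inv1 hindlimb the list median was -0.63, against -0.24 for all genes, and in the G4 hindlimb -0.52, against -0.17. The value of Npm3 was 0.32 in the Inv1 hindlimb and 2.48 in the G4 hindlimb. In the G4 hindlimb Npm3 ranked 107th of 2933 genes by this value, and in the Inv1 hindlimb 667th of 3015.

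The remaining partner lists held few measured genes. For Oga, the opposing transferase Ogt was at 178 CPM in the Inv1 hindlimb against 156 CPM in G4 (ratio 1.14, 0.794 to 1.66). The list of partners of Ldb1 held 12 genes, namely Ldb2, LIM-domain factors and single-stranded DNA-binding proteins of the Ssbp family. Of these, 2 were measured in the hindlimb pair, 4 in the forelimb pair and 3 in the Dup pair. In the forelimb 2 were lower by 2-fold, beside 14.4% of all genes. They were the DNA-binding proteins Ssbp2 at 0.417 and Ssbp4 at 0.375, both with intervals that hold 1. None passed 2-fold in the other pairs, beside 1.25% of all genes lower and 1.88% higher in the hindlimb. In Dup 5.38% of all genes were lower and 6.74% higher. Of 11 ARF1 and COPI genes that work with Gbf1, 1 of 9 (Copb1, at 3.01) was higher in the Inv1 hindlimb, beside 1.88% of all genes. In the Inv1 forelimb 2 of 8 (Copb1 and Cope) were higher, beside 5.27% of all genes, and 1 (Arf3) was lower, beside 14.4%. In Dup 0 of 6 passed, beside 6.74% of all genes higher and 5.38% lower. The Arf1 ratio was at 0.901 (0.714 to 1.14), 1.97 (1.14 to 3.69) and 0.857 (0.574 to 1.27). Of the BLOC-2 genes with Hps6 and the Kv4 genes with Kcnip2, at most 1 per list was measured in a pair, and none passed 2-fold.

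By likeness over the 24 profiles, the other members were most like genes other than Fgf8. Oga was most like Tug1 (0.924), Trim33 (0.877) and Nipbl (0.875), Ldb1 most like Emsy (0.881), Dock1 (0.854) and Atn1 (0.832), Nolc1 most like Gspt1 (0.899), Ndufa10 (0.883) and Rnps1 (0.870), and Gbf1 most like Alg13 (0.875), Angel2 (0.867) and Uqcc1 (0.867). With Fgf8 the r was 0.444 for Oga, 0.0465 for Ldb1, -0.172 for Nolc1 and -0.680 for Gbf1, against 0.863 for Npm3. Fgf8 was high only in the AER profiles of Dup and the wild types, so each r leans on those. There Gbf1 had 3 UMIs in the G4 hindlimb, 0 in the G4 forelimb, 0 in Dup and 3 in C57BL/6. Its r thus leans on counts at or below the floor. Oga, Ldb1 and Nolc1 had 5 to 18 UMIs in these profiles.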

How the data were processed

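The 6 libraries were E11.5 limb buds dissociated with trypsin and sequenced with 10x Chromium 3′ chemistry. Unnormalised UMI counts were deposited by the authors, from Cell Ranger version 3 and a custom mm9 reference (mm10 also stands in the submitters' processing notes). Their stated filters covered gene number, mitochondrial reads and doublets by Scrublet, and they named the cell classes deposited with each cell from clusters made after integration. No further doublet removal was run. The annotation release and use of strand in counting are not given in the sources used here.

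The 7 genes and all lists were chosen with earlier results of these data known. Cells with over 2000 detected genes were kept, and UMIs were summed per library and class and scaled to the total over the 15668 genes in both matrices (Python 3.11.15, numpy 2.4.6, scipy 1.17.1, pandas 2.3.3). Levels have exact Poisson intervals, shares Clopper-Pearson intervals, ratios conditional binomial intervals and quotients delta-method intervals. Counts of 0 are read against a floor of 3 counts. Genes were called by a ratio of 2 or more, or of 0.5 or less, which is a rule of size. List medians were taken after adding 0.5 counts. The interval code was tested on simulated data.

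Genes named are the members, Fgf8, the other genes up to Gbf1, the 6 Lbx1-side genes, list and marker genes, and the 5 genes (Npm3) or 3 genes (other members averaging at least 20 CPM) most alike over the profiles. Symbols were found for 14544 of 15668 identifiers, coordinates are from an NCBIM37 annotation, and RefSeq promoter windows (GRCm38.p6) matched 7 of 7 members. Alternatives were other limits on detected genes, the marker gates, the authors' second hindlimb annotation, leaving out AER cells with mesenchyme markers, per-cell means, median-of-ratios scaling, thinning and other CPM minimums. A hindlimb matrix whose rows carry barcodes in place of gene identifiers was not used, and 13 columns of per-cell values were not used. The relation of Npm3 with Fgf8 over single AER cells is not reported here.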

Additional observations from a re-analysis of the deposited data

Results flagged for a closer look

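Several members had ratios on opposite sides of 1 in the hindlimb and forelimb pairs, with both intervals leaving out 1. The difference between the limbs was not tested, since each ratio rests on 1 library per group. In mesenchyme Oga was at 1.19 (1.13 to 1.26) for Inv1 over G4 in hindlimb and 0.690 (0.649 to 0.734) in forelimb. In muscle Oga was at 1.52 (1.17 to 1.98) in hindlimb and 0.577 (0.454 to 0.732) in forelimb. Nolc1 in mesenchyme was at 1.16 (1.11 to 1.22) in hindlimb and 0.828 (0.781 to 0.879) in forelimb. Gbf1 in mesenchyme was at 1.09 (1.00 to 1.18) in hindlimb, with a lower bound just above 1, and 0.725 (0.659 to 0.797) in forelimb. The 6 members other than Npm3, summed in mesenchyme, were at 1.11 (1.08 to 1.14) in hindlimb and 0.785 (0.760 to 0.812) in forelimb. These ratios are without median-of-ratios scaling. In mesenchyme its log2 shift was 0.05 for the hindlimb pair and -0.18 for the forelimb pair. This brings the mesenchyme ratios listed here nearer to 1 in both pairs. The forelimb mesenchyme ratio of Npm3 moves the other way, further above 1.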

How the results depend on the processing

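No paired analysis was possible because each group held 1 library, and for the same reason no replicate could be left out. Alternatives were run for AER ratios of Npm3, Oga, Ldb1, Nolc1 and the summed members, for Npm3 AER to mesenchyme ratios and for mesenchyme ratios. Among these, no ratio whose interval left out 1 turned its direction. Muscle ratios, quotients, finer mesenchyme classes, ridge markers and partner genes are not covered by that statement. Under the marker gate the Npm3 AER ratio was 0.513 in hindlimb and 0.790 in forelimb, and with 3 of 6 markers, added after the data were seen, 0.473 in hindlimb and 0.644 in forelimb. In Dup the Npm3 ratio was 1.61 over 3000 detected genes and 0.554 without AER cells holding mesenchyme markers, and the summed other members were at 1.75 over 3000 detected genes. The Npm3 AER to mesenchyme ratio under the gate was 2.77 in the G4 hindlimb, 2.19 in the G4 forelimb and 1.76 in Dup. Over 3000 detected genes it was 7.71 in the G4 hindlimb and 2.29 in C57BL/6, and in C57BL/6 it was 5.87 without the cells holding mesenchyme markers and 5.19 as a mean over cells. At a mean of 20 or more CPM, genes lower by 2-fold made up 3.77% in the Inv1 hindlimb and 9.51% in Dup, and genes higher 5.09% in the Inv1 hindlimb, 10.8% in the Inv1 forelimb and 12.6% in Dup. At 100 or more CPM, 8.68% were lower in the Inv1 forelimb, and in Dup 3.31% were lower and 3.95% higher. Thinned AER shares with an Npm3 UMI were 32.9% in the Inv1 hindlimb, 17.9% in the Inv1 forelimb, 40.0% in the G4 forelimb and 68.8% in C57BL/6. The causes of these moves were not tested. AER values rest on 10 to 82 cells per library, so that differences in Oga, Ldb1, Nolc1 and Gbf1 well over 1.5-fold lie within the counting intervals.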
